A study of Mus musculus with 12 samples.

Results

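Basement membranes are thin sheets of matrix that lie beneath endothelial and epithelial cells. Their laminins are trimers of an alpha, a beta and a gamma chain that bind cell surface receptors, type IV collagen forms a crosslinked network beside them, and nidogens and the heparan sulphate proteoglycan perlecan link both layers. In vessels the endothelium itself makes much of this sheet, with laminins that carry the alpha 4 or alpha 5 chain together with the beta 1 and gamma 1 chains. Described here are 10 genes of this sheet in a map made with a Runx1b fusion protein in cells grown from mouse embryonic stem cells. They comprise the collagen genes Col4a1, Col4a2 and Col18a1 and the laminin genes Lama4, Lama5, Lamb1 and Lamc1. The others are the nidogen genes Nid1 and Nid2, and Hspg2, which encodes perlecan. The 10 genes were taken by gene symbol from a deposited table of 5867 genes. All 10 had a row under their current symbols, so no older symbol was needed.

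The map was made by DamID-seq, in which the Dam methylase of bacteria is joined to a DNA-binding protein and the GATC sequences methylated around its binding places are recovered and sequenced. Runx1b is an isoform of the transcription factor Runx1, which is required for blood cells to form from haemogenic endothelium. There were 12 libraries of genomic DNA from 2 mouse embryonic stem cell lines of strain 129, 6 from the line iRunx1b::Damko (iRunx1b::Dam_runx1-/-), which carries the Runx1b::Dam fusion, and 6 from the line iDamko (iDam_runx1-/-), which carries Dam alone. Both lines are runx1-/-, so both the fusion and the control cells lacked functional endogenous Runx1, and the bound protein was a fusion supplied in its absence. Each line had 3 biological replicates and 3 libraries called technical replicates. FLK1+ cells were taken from embryoid bodies and cultured for 2 days in blast medium, and were then isolated again as cKIT+ TIE2+ CD41- cells by flow cytometry in 2 libraries of each line or as FLK1+ cells by magnetic sorting in 4.

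The table gave 1 read count per gene, summed over every region assigned to that gene, and no value for any single library. The depth of each library is therefore unknown, no value below has a replicate error, and no test of Runx1b::Dam against Dam could be made. A region in this table is a stretch of the mm9 build that the authors listed for a gene, and its reads are not an enrichment over Dam. The labels and the table do not say which of the 12 libraries contributed reads. Intervals are exact 95% Poisson intervals, which cover counting error only and treat amplified reads as independent molecules. The table held no expression data, so markers of the sorted cells could not be checked.

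All 10 genes had at least 1 region, in a table where 4584 of 21900 protein-coding genes (20.9%) had one. The 10 were chosen with earlier results of these data known, so this count describes them and is no test. Together they held 30 regions with 115490 reads over 107.55 kb. At least 2 regions were assigned to 8 of the 10 genes, against 6.42% of protein-coding genes, and 3 or more to 5 of the 10, against 2.66%. In the genes' own length classes, described next, these shares averaged 18.4% and 9.74%. None of the 30 regions was assigned to any other gene. All 10 genes thus had only regions of their own, against 78.3% of the rows in the table. Long genes had regions more often than short ones, and these genes are long. Of 10 equal length classes of protein-coding genes, the longest held 5 of the 10 genes and the next held 4. In the longest class 45.3% of genes had a region. With each gene's own length class as background the average share was 38.5%.

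**Figure D1:**
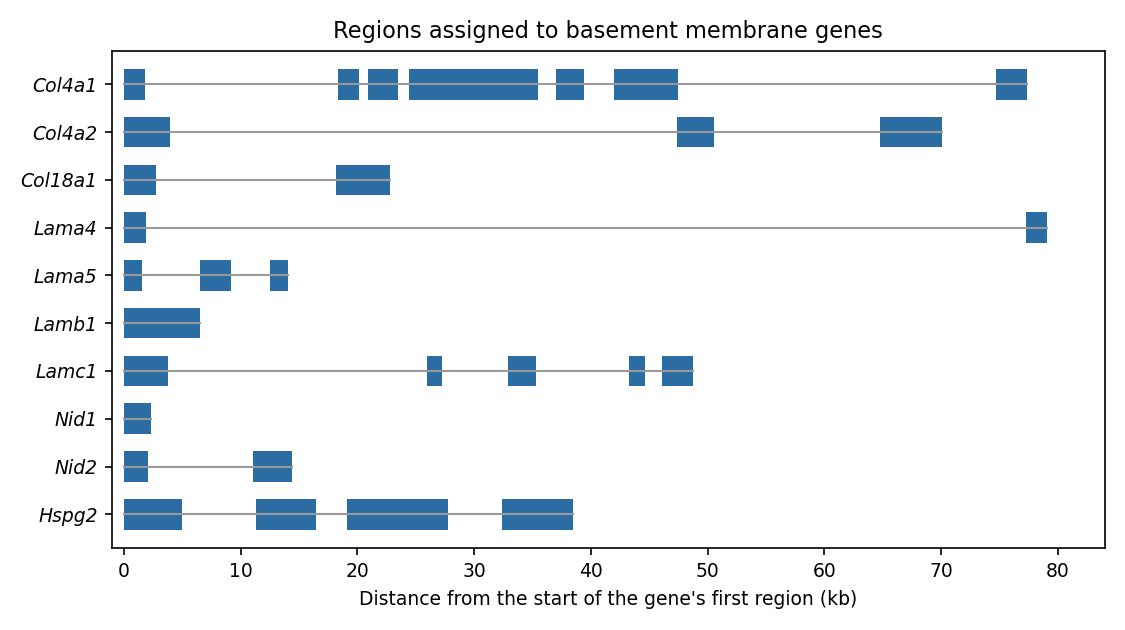
Regions assigned to each of the 10 genes, drawn to scale as blue blocks. The x axis is the distance in kb from the start of the gene's first region in the order of mm9 coordinates, not in the direction of transcription. Col4a1 has 7 regions over 77.35 kb, Hspg2 has 4 over 38.45 kb, and Lamb1 and Nid1 have 1 each.

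Col4a1 and Col4a2 encode the alpha 1 and alpha 2 chains of the main type IV collagen, present in basement membranes throughout the body, and are transcribed away from each other from a shared promoter on chromosome 8. Col4a1 (ENSMUSG00000031502) had 38222 reads in 7 regions, the fourth highest read count of the 5867 rows. Only 60 rows had as many regions or more. Among the 2190 protein-coding genes of its length class, 2.24% had at least 7. Of these regions, 5 stood close together within 29.15 kb and covered 23.25 kb of it. The widest, chr8:11257998-11268998, measured 11 kb, and only 13 of the 8133 distinct regions of the table were wider. The outermost regions of Col4a1 were chr8:11233548-11235348 and chr8:11308248-11310898.

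Col4a2 (ENSMUSG00000031503) had 19471 reads in 3 regions, chr8:11313848-11317798, chr8:11361198-11364348 and chr8:11378598-11383898. Its first region began 2950 bp beyond the last region of Col4a1. The pair thus had 10 regions within 150.35 kb, which held 57693 of the 115490 reads of all 10 genes. Windows of that length starting at each of the 8133 regions held a median of 2 regions, and 26 of them, on 12 chromosomes, held 10 or more. The length was set by this pair, whose own window is among the 26. Windows can overlap, so the 26 are not all separate places. Beyond the pair, the nearest region on the Col4a1 side was 40.05 kb away, at the processed transcript Gm15418, and the nearest on the Col4a2 side was 80.15 kb away, at Rab20.

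Col4a2 had 1570 reads per kb of its regions (1548 to 1592), the highest value of the 10 genes, and Col4a1 had 1380 (1366 to 1393). They stood above 96.4% and 93.7% of all rows. Both lie on chromosome 8, whose 270 rows had a median of 984 reads per kb, the highest of any chromosome, against 693 on the other autosomes. Divided by the median of chromosome 8, Col4a2 stood at 1.60 and Col4a1 at 1.40. On their own chromosome they ranked 34 and 57 of 270.

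The promoter sequences of this pair are shown because its genes had the highest levels of the 10. They come from RefSeq (GRCm38.p6), each with 250 bases before and 50 after the annotated start, 5′ to 3′ on the gene's own strand. Of the 10 genes, 7 had an entry, with 8 windows in all, and Lama4, Lamc1 and Nid2 had none. Capitals mark matches on either strand to TGTGGT or TGCGGT, the core of the motif that Runx proteins bind, and to GATC, the sequence that Dam methylates. No match overlapped another. The windows of Col18a1 and Lama5 are added because they are the only others with a match to the Runx core.
Col4a1, chr8:11312777-11313076, minus strand: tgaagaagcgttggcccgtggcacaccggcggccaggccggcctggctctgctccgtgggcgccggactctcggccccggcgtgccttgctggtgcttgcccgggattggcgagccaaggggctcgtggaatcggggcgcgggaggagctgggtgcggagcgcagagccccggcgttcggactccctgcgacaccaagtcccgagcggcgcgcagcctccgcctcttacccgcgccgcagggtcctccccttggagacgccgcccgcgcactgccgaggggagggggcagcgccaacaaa
Col4a2, chr8:11312555-11312854, plus strand: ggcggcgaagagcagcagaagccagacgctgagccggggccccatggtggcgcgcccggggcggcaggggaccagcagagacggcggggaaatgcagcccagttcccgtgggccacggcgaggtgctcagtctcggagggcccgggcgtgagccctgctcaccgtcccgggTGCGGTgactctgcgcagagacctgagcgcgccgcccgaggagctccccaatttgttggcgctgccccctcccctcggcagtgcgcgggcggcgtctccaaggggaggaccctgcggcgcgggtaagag
Col18a1, chr10:77113656-77113955, minus strand: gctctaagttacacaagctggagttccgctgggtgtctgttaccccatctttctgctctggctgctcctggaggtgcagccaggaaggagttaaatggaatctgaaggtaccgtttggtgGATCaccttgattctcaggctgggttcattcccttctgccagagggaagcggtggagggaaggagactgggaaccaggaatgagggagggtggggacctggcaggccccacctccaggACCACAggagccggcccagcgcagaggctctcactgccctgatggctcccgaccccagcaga
Lama5, chr2:180225810-180226109, minus strand: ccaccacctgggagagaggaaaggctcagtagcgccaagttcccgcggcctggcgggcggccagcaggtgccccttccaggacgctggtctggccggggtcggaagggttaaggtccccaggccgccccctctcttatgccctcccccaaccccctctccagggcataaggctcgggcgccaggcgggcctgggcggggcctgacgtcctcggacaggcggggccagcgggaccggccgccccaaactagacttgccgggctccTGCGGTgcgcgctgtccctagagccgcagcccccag

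The annotated starts of Col4a1 and Col4a2 were 21 bases apart, and their windows shared 78 bases. Col4a1, on the minus strand, started at the higher coordinate, so the annotated genes overlapped at their starts and left no gap. The Col4a1 window held no match to any of the 3 sequences, and the Col4a2 window held 1 TGCGGT, at position -79 from the start. Of the 2 Col18a1 windows, the one printed held TGTGGT on the reverse strand at position -12, and each held 1 GATC. Lama5 had TGCGGT at position 15. Over the 8 windows, 1 held TGTGGT and 2 held TGCGGT, so 3 held either one. Among 32544 distinct promoter windows of the same length, 16.7% held TGTGGT, 6.46% held TGCGGT and 22.4% held either one. GATC occurred in 3 of the 8 windows, those of Nid1 and both of Col18a1, against 47.8% of all windows. The 8 windows were richer in G and C than promoters at large, with a median of 67.5% against 53%. These windows are on another build than the regions, so they were not placed inside or outside any region, and a match is a description of the letters only.

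Col18a1 encodes type XVIII collagen, a heparan sulphate collagen of vascular and epithelial basement membranes whose end fragment is endostatin, an inhibitor of vessel growth. It had 5533 reads in 2 regions, chr10:76594820-76597620 and chr10:76613020-76617620, at 748 reads per kb (728 to 767). That was 1.12 times the median of chromosome 10 and above 58.0% of all rows. The nearest region of another gene lay 74.6 kb away, at Gm10941.

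The genes of the 2 endothelial alpha chains had regions of unlike spacing and level in the pooled reads. Lama4 (alpha 4, of early and microvascular endothelium) had 3963 reads in 2 narrow regions 75.35 kb apart, chr10:38685620-38687520 and chr10:38762870-38764670. At 1071 reads per kb (1037 to 1104) it stood at 1.61 times the median of chromosome 10. That was the highest such ratio of the 10 genes, nearly level with the 1.60 of Col4a2. Lama5 (alpha 5, of epithelium and mature vessels) had 3435 reads in 3 regions within 14.1 kb, the widest of them chr2:179956674-179959374. The level of 592 reads per kb (572 to 612) was below the median of chromosome 2, with a ratio of 0.837. The number of Lama5 regions stood further out than their level, since 2.10% of protein-coding genes of its length class had 3 or more.

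The beta 1 and gamma 1 chains, which pair with either alpha chain, were near or below the middle of the table. Lamb1 had a single region, chr12:31951229-31957729, with 3493 reads. It was 6.5 kb wide, wider than 97.9% of all regions, and had 537 reads per kb (520 to 555), a ratio of 0.851 to its chromosome. Lamc1 had 7622 reads in 5 regions over 48.7 kb, from chr1:155120713-155124463 to chr1:155166813-155169413. The level of 665 reads per kb (651 to 680) was 1.02 times the chromosome median, while 5.16% of genes of its length class had 5 regions or more. On the side of higher coordinates the nearest region of another gene was 171 kb away, at Dhx9.

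The nidogens, which bind both laminin and type IV collagen, held the fifth and the last place by level among the 10 genes. Nid2 had 4903 reads in 2 regions, chr14:20570926-20573026 and chr14:20582026-20585326, at 908 reads per kb (882 to 933). Rows of chromosome 14 had a median of 865, so its ratio was 1.05 although it stood above 74.2% of all rows. Nid1 had 1 region, chr13:13595859-13598209, with 1009 reads. The level of 429 reads per kb (403 to 456) was the lowest of the 10 genes, with a ratio of 0.683, and stood above only 15.2% of all rows. The Nid1 region was also isolated, with the nearest other region 533 kb away at Tbce.

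Perlecan, the product of Hspg2, carries heparan sulphate chains that hold growth factors in the matrix. Hspg2 (ENSMUSG00000028763) had 27839 reads, the second highest count of the 10 genes and rank 17 of the 5867 rows. Its 4 regions lay within 38.45 kb and were all wide: chr4:137019309-137024259, chr4:137030659-137035759, chr4:137038409-137047109 and chr4:137051659-137057759. The widest of them measured 8.7 kb, and 47 regions of the table were wider. Hspg2 reached 1120 reads per kb (1107 to 1133), 1.51 times the median of chromosome 4. Within its length class 2.74% of genes had 4 or more regions. A region of 1700013G24Rik lay 2.9 kb from the first of the 4.

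**Figure D2:**
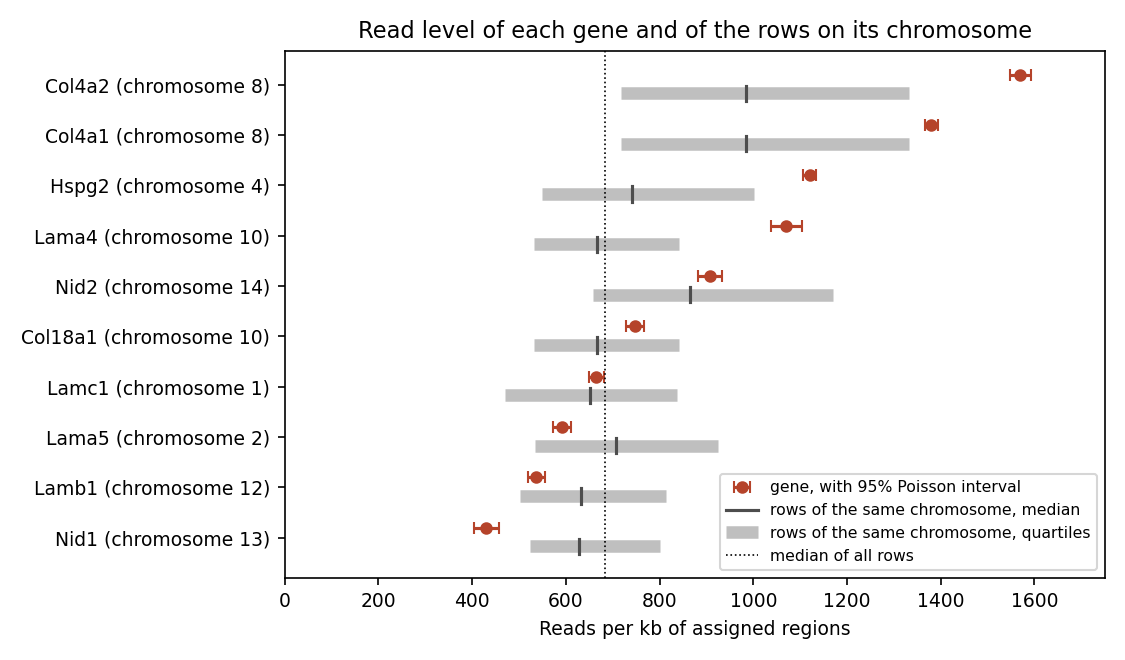
Reads per kb of assigned regions for each gene (red points, with 95% Poisson intervals) above the median (dark tick) and quartiles (grey bar) of all rows on the same chromosome. The dotted line is the median of all 5867 rows, 683. Col4a2, Col4a1, Hspg2 and Lama4 lie above the upper quartile of their chromosome, and Nid1 lies below the lower quartile.

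In order of reads per kb the 10 genes ran from Col4a2 through Col4a1, Hspg2, Lama4, Nid2, Col18a1, Lamc1, Lama5 and Lamb1 to Nid1, over a 3.66-fold range. For none of the 9 pairs of neighbours in this order did the Poisson intervals overlap. These intervals hold no spread between libraries, so the order is one of pooled reads only. The median of the 10 genes was 828 reads per kb, against 683 over all rows with quartiles of 515 and 918. Above the upper quartile of all rows stood 4 of the 10 genes, against 25% of rows. With each value divided by the median of its chromosome, the range narrowed to 2.35-fold and the median of the 10 to 1.09. By that ratio 7 of the 10 genes were above the median of their chromosome, against 49.8% of rows. Lama4 at 1.61 and Col4a2 at 1.60 then came first and were nearly level, ahead of Hspg2 at 1.51 and Col4a1 at 1.40. Intervals were not computed for these ratios, so the order of Lama4 and Col4a2 is not resolved.

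Some of the regions of these genes were wide. They had a median width of 2675 bp, against 2100.0 bp over all 8133 regions, and 7 of the 30 were 5 kb or wider, against 5.36% of all regions. The limit of 5 kb was chosen after the widths were seen. These wide regions belonged to Hspg2 with 3, Col4a1 with 2, and Col4a2 and Lamb1 with 1 each. Summed region width equalled 24.4% of the gene's length at Hspg2 and 24.2% at Col4a1, as a ratio of lengths, since regions may also lie outside a gene. Among genes with a region, the median of this ratio was 3.90% in the length class of Hspg2 and 1.74% in that of Col4a1. The ratio was 2.56% at Lama4 and 3.15% at Nid1, the lowest values of the 10. Lama4 is in the length class of Col4a1 and lay above its median of 1.74%. Nid1 is in that of Hspg2 and lay below its median of 3.90%. Col4a1, Col4a2 and Hspg2 together held 14 of the 30 regions and 74.1% of the reads.

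**Figure D3:**
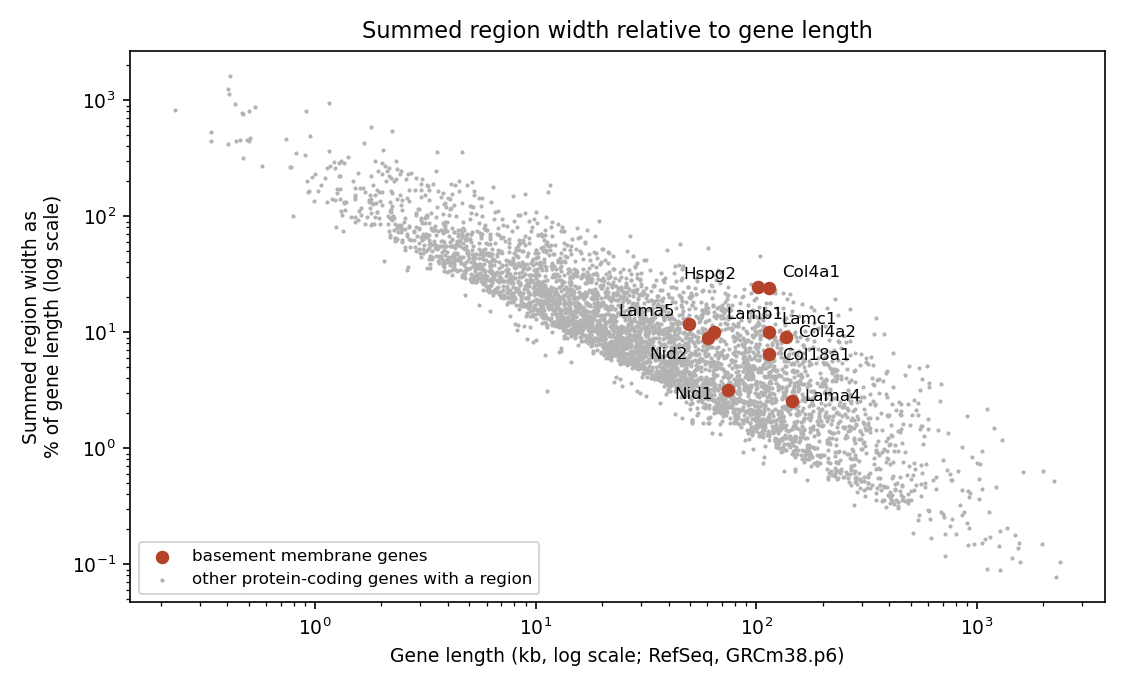
Summed width of a gene's regions as a percentage of gene length (y, log scale) against gene length in kb (x, log scale, RefSeq GRCm38.p6). Red points are the 10 basement membrane genes and grey points the other protein-coding genes with a region. Hspg2 and Col4a1, at 24.4% and 24.2%, lie near the upper edge for their length, and Lama4 and Nid1 are the lowest of the 10.

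Genes for other structural components of basement membranes had a region in 8 of 26 cases (30.8%), against 20.9% of protein-coding genes. Most of them are long, and in their own length classes an average of 37.7% of genes had a region, so the list's share lay below that of genes of like length. This list and those that follow were set up with earlier results of these data known, so their shares are descriptions and were not tested. Those with a region included Lama1 (the alpha 1 chain of the early embryo) with 742 reads per kb (716 to 768) in 2 regions, Lama3 (the alpha 3 chain of epithelial laminin) with 717 and Lamb3 (the epithelial beta 3 chain) with 671. Col4a6, the one other type IV collagen gene with regions, had 3 with 113 reads per kb. It lies on the X chromosome, whose rows had a median of 160 reads per kb, so its ratio was 0.704. Hmcn1, which encodes the giant matrix protein hemicentin 1, had only 102 reads in its region, at 65.8 reads per kb. No region was assigned to Col4a3, Col4a4 or Col4a5, the chains of kidney and other specialised membranes, or to Lama2, Lamb2, Lamc3, Agrn, Col15a1 or Ntn4. Over the 8 genes the median was 591 reads per kb, 0.867 times the chromosome median, and 4 of the 8 were above it.

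Genes of collagen folding and crosslinking had a region in 11 of 21 cases (52.4%), against 20.9% of protein-coding genes and an average of 24.0% in their length classes. They included Loxl3, a crosslinking oxidase, at 998 reads per kb with 1 of 2 regions shared with Htra2. Next were Colgalt1, a collagen galactosyltransferase listed as Glt25d1, at 912, the prolyl hydroxylase gene P3h2, listed as Leprel1, at 891, and P4ha2, a chain of prolyl 4-hydroxylase, at 794. Serpinh1, the collagen chaperone, had 615 reads per kb over a single region of 11800 bp, which is wider than the widest region of Col4a1. Relative to their chromosomes 2 of the 11 were above the median. Pxdn, the peroxidase that crosslinks type IV collagen, had 489 reads per kb, and Lox had no region.

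Receptors for basement membrane proteins had a region in 8 of 17 cases (47.1%), against 20.9% of protein-coding genes and an average of 28.5% in their length classes. Itgb1, the common beta chain of laminin- and collagen-binding integrins, led with 1452 reads per kb (1393 to 1513), followed by Itgb4, the partner of the alpha 6 chain, with 1065, Itga3 with 974 and the collagen-binding Itga1 with 800. Itgb1 lies on chromosome 8 like Col4a1 and Col4a2, and its ratio there was 1.48. Itga6, a laminin-binding chain, had 514 reads per kb. Dag1, which encodes the laminin receptor dystroglycan, Bcam and both discoidin receptor genes, Ddr1 and Ddr2, had no region.

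Genes for proteases and inhibitors that act on this matrix had a region in 8 of 18 cases (44.4%), against 20.9% both of protein-coding genes and, on average, in their length classes. Bmp1, which encodes a procollagen proteinase, had 6911 reads in 1 region of 1450 bp, chr14:70915126-70916576, at 4763 reads per kb (4651 to 4877). That was 5.51 times the median of chromosome 14 and above 99.9% of all rows. Mmp14, a membrane-bound collagenase, had 1234 reads per kb and shared 1 of 2 regions with Mrpl52. The urokinase gene Plau had 950 and the cathepsin gene Ctsl 948. The gelatinase genes Mmp2 and Mmp9 had no region. Over all 4 lists 35 of 82 genes had a region, against 20.9% of protein-coding genes. The average shares in the lists' own length classes ran from 20.9% to 37.7%.

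**Figure D4:**
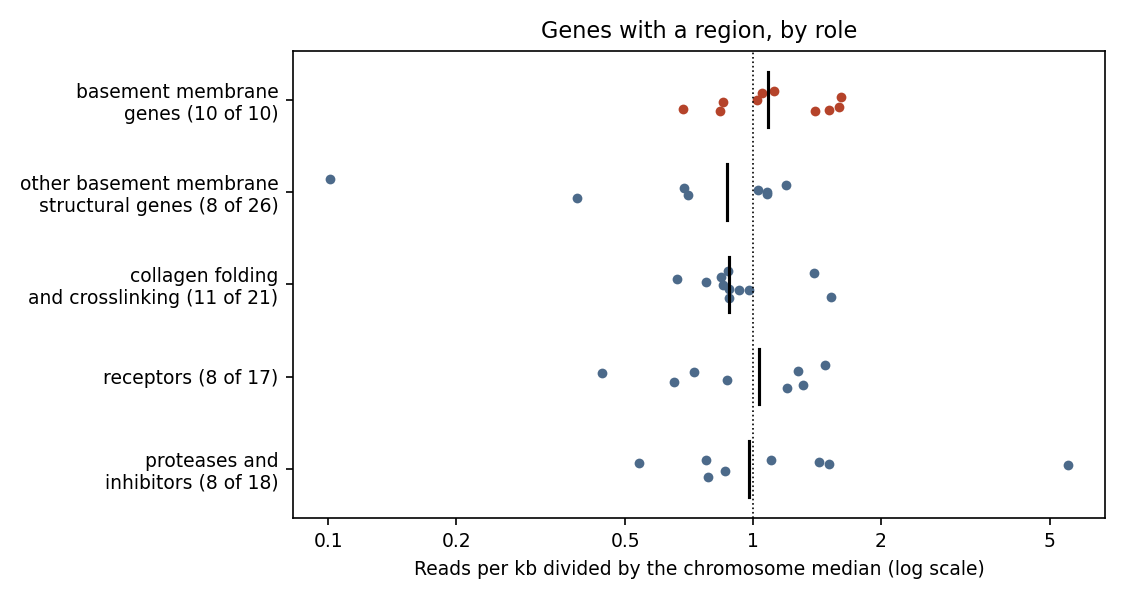
Reads per kb divided by the median of all rows on the same chromosome (x, log scale), 1 point per gene with a region, with a black tick at each list's median and a dotted line at 1. The labels give how many genes of each list had a region. The 10 basement membrane genes have a median of 1.09, and the medians of the other lists lie between 0.867 and 1.03.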

How the data were processed

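Per the labels' protocols, DamID fragments were sequenced from barcoded SOLiD libraries. Coordinates are on mm9, the build named in the submitters' processing notes. How reads were aligned, regions called, Dam subtracted, genes annotated and libraries pooled is not stated in the sources used. For each gene the authors deposited a count, the whole number of reads summed over its regions. Its second column, deposited by the authors as reads per kb, is a signal. It matched the quotient of count and region length in kb (both ends included) within 0.006 in all 5867 rows, and is not scaled to library size. Printed widths are end minus start. The median row had 1883 reads (95% Poisson interval 1799 to 1970.0). There were 0 columns of values per library, so the planned edgeR test of the lines was replaced by description, without any p-value.

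Levels were set beside the median of all rows and of rows on the same chromosome. Gene symbols were matched to RefSeq (GRCm38.p6) by symbol on the same chromosome, then by synonym for protein-coding genes. Of 4771 protein-coding rows, 4654 (97.5%) matched. RefSeq gave gene lengths, cut into 10 classes, and promoters. All 10 genes are described. From each other list the rule names up to 4 genes with the most reads per kb and, as names only, genes without a region. Col4a6, Hmcn1, Serpinh1, Pxdn and Itga6 were named after their values were seen. A further gene that the rule names is not reported here. The members and lists were chosen with earlier results of these data known. Parsing, ranks, intervals and the motif search were tested on simulated data. Python 3.11.15, pandas 2.3.3, NumPy 2.4.6 and SciPy 1.17.1 were used.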

Additional observations from a re-analysis of the deposited data

How the results depend on the processing

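The count of 10 genes with a region was also 10 when shared regions were left out and with current symbols only, and 8 with 2 or more regions required. The background share was 18.0% for regions of a single gene and 10.2% over genes of any type. The median of the 10 genes was 1.21 times that of all rows, from 1.21 to 1.23 with protein-coding rows, rows without shared regions or width as end minus start, and 1.09 when each value was divided by its chromosome's median. Above the median of all rows, in place of their chromosome, were 6 genes in place of 7. With 2 or more regions required, the other structural genes with a region numbered 3, the folding and crosslinking genes 6, the receptors 1 and the proteases and inhibitors 3. With regions of a single gene only these counts were 8, 10, 8 and 7. Backgrounds by length class for the 4 lists, and for 2 or more and 3 or more regions, were added after seeing the data. No paired analysis was possible because the table holds no value per library, and leaving out a replicate was not run for the same reason. Without counts per library, depth limits every level to an interval of counting error.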
